A study of Mus musculus with 4 samples.

Results

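Club cells, the secretory cells of the bronchiolar epithelium, were picked out of single-cell RNA libraries of whole mouse lung as 75 of 44835 cells. A cell was a droplet barcode with at least 500 genes, at least 1000 unique molecular identifiers (UMIs, which count RNA molecules) and under 15% mitochondrial UMIs. A club cell also had at least 20 UMIs of Scgb1a1 and at least 1 UMI each of Cyp2f2 and Scgb3a2. It had fewer than 2 detected genes among 4 of ciliated cells (Foxj1, Ccdc153, Tmem212 and Rsph1) and fewer than 2 among 3 of alveolar type 2 cells (Lamp3, Slc34a2 and Etv5). Its Cdh5 and Cldn5 UMIs, which mark endothelium, summed to at most 1, Ptprc and Col1a2 were at 0, and S100a8 with S100a9 stayed under 1% of its UMIs. These genes chose the cells, so their values in club cells are a description.

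Club cells line the small airways beside ciliated cells. They are known for secreting secretoglobins, antimicrobial lectins and other proteins into the airway lining fluid, for oxidizing inhaled chemicals with cytochrome P450 enzymes, and for renewing themselves and ciliated cells after injury. Notch signalling is known to hold airway cells in the secretory fate.

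All lungs came from C57BL/6J mice of 6 to 8 weeks of age that were kept in hypoxia for 6 weeks, as wild type (WT) or as Vegfr2Y949F mutants. Vegfr2Y949F changes a tyrosine of VEGFR2, the receptor for vascular endothelial growth factor A that Kdr encodes, to phenylalanine; this tyrosine is known for its part in vascular permeability signalling. The labels name no Cre or cell-type promoter for the allele. Each suspension pooled the lungs of 2 mice, every genotype was sequenced as 1 pool labelled A and 1 labelled B, and no library from normal oxygen was analysed here. The 4 libraries are called WT A, WT B, mutant A and mutant B below. Nothing in the labels tells what A and B stand for, so p-values measure only the spread between these 4 pools.

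WT A held 17 club cells of 11721 cells, WT B 21 of 10560, mutant A 24 of 12441 and mutant B 13 of 10113. Club cells were the deep end of the libraries, with a median of 40049 to 61145 UMIs per cell by library against 4536 to 5742 over all cells. Their summed UMIs ran from 686738 in WT A to 1058890 in mutant A. Pairs of libraries shared 28 to 54 barcodes, and none of those was a club cell in both libraries. Whether any was a club cell in a single library was not counted. All 12 club cell markers that the rule did not use were detected. Of these 12, 11 lay above ciliated cells in every library (Aldh1a1 did not), 11 above alveolar type 2 cells (Sftpd did not), 11 above alveolar type 1 cells (Scnn1b did not) and 12 above endothelial cells. Of all genes with a UMI, 6.84%, 9.01%, 10.8% and 10.2% lay above these types in the same way.

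The threshold of 20 Scgb1a1 UMIs fell in a gap. Among barcodes that met all the other criteria the highest below it had 4 Scgb1a1 UMIs, and the members with the fewest had 81, 1042, 1338 and 1535. The member with 81, a cell of WT A, goes against its name. Scgb1a1 made up 0.384% of its 21103 UMIs, and it held 380 UMIs of Hopx, 304 of Ager and 155 of Igfbp2, which are markers of alveolar type 1 cells. The 8 alveolar type 1 markers on the list summed to 1557 CPM (counts per 1000000 UMIs, scaled by trimmed-mean factors, TMM) in WT A against 185 to 309 in the other libraries. Genotype values of the type 1 markers are given with and without this cell.

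Endothelial droplets, which should lack Scgb1a1, had a library median of 2 to 5 UMIs of it, which sets the level of free club cell RNA. Of the 141 barcodes with at least 1000 Scgb1a1 UMIs, 74 were members. Among the rest, 34 failed on Cdh5 with Cldn5, 17 on the alveolar type 2 genes, 17 on Col1a2, 8 on Ptprc and 7 on the ciliated genes, with overlap between these counts. Barcodes outside the club cells held 41.1% to 59.6% of all Scgb1a1 UMIs of the kept cells in each library.

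Scgb1a1, a small secreted protein that binds lipids and is the classic product of club cells, made up most of their messenger RNA. Of all UMIs in club cells it took 57.1% in WT A, 63.2% in WT B, 60.2% in mutant A and 59.9% in mutant B. Single cells ranged from 0.384% to 78.8%, with a median of 60.1%, a lower decile of 40.1% and an upper decile of 69.7%. Scgb3a2, a related secretoglobin also used by the rule, took 1.13% in WT A, 1.09% in WT B, 1.31% in mutant A and 1.02% in mutant B. Scgb3a1, a secretoglobin that the rule did not use, took 0.871%, 2.09%, 0.769% and 1.04% in the same order. The 3 genes together came to 59.1% of the UMIs in WT A and 66.3% in WT B, with both mutant libraries between them at 62.3% and 61.9%. The gene of Scgb1a1 lies at chr19:9083636-9087958 on the minus strand and that of Scgb3a1 at chr11:49663610-49665118 on the plus strand (mm10, GENCODE M21).

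**Figure D1:**
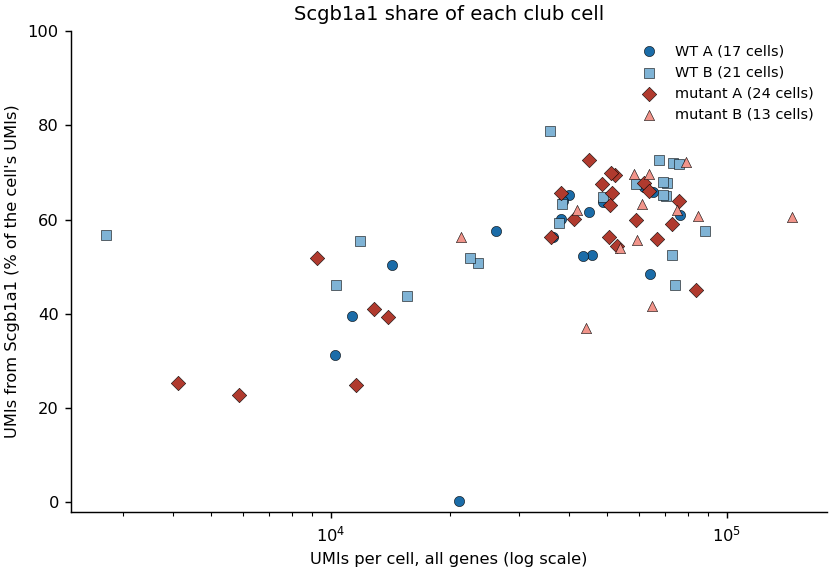
Share of UMIs from Scgb1a1 (y axis, %) against total UMIs per cell (x axis, log scale) for each of the 75 club cells, with 1 color and symbol per library. The 4 libraries overlap around the median of 60.1%, and a single WT A cell sits near 0 at 0.384%.

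Because Scgb1a1 fills so much of each cell, levels within club cells are given as CPM, while club cells are set beside other cell types as Scgb1a1-free CPM, which are unscaled counts per 1000000 UMIs other than Scgb1a1. The comparison types were gated as 65 ciliated, 116 alveolar type 2, 929 alveolar type 1 and 24273 endothelial cells. Some ciliated and type 2 droplets still carried much Scgb1a1. The mean was 5709 UMIs per ciliated droplet in WT B, 2715 in mutant B and 882 per type 2 droplet in WT B. The medians were 13, 4 and 6 and the maxima 86904, 40653 and 31222 in the same order, so few droplets made these means.

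A total of 417 genes reached 100 unscaled CPM in every club library. Ranked by fold over all other kept cells, with no test since the same cells were gated by expression, the 25 leading genes were mostly secreted proteins, enzymes and junction proteins. Reg3g, an antimicrobial lectin, led at 769-fold, followed by Bpifb1, a BPI-fold airway protein, at 551-fold, Scgb3a1 at 259.9-fold and the gel-forming mucin Muc5b at 211-fold. Gabrp, a GABA receptor subunit, followed at 102-fold, Lypd2 at 98.3-fold, Pigr, which carries immunoglobulin A across epithelium, at 96.3-fold, and Pon1, a paraoxonase, at 87.8-fold. The tight junction claudins Cldn10 and Cldn4 stood at 84.5-fold and 80.5-fold, and the uncharacterized 5330417C22Rik at 75.3-fold. Gpx2, a glutathione peroxidase, Fgfbp1, a binding protein for fibroblast growth factors, and Cbr2, a carbonyl reductase, were at 55.9-fold, 52.2-fold and 47.7-fold. The remaining genes outside the rule lay between 29.5-fold (Muc1) and 42.0-fold (Wfdc2) and were Hp, Retnla, Cxcl17, Foxq1, Aldh1a7 and Aox3. The rule's own Scgb3a2, Scgb1a1 and Cyp2f2 stood at 103-fold, 88.6-fold and 86.0-fold.

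Of 24 genes for secreted airway proteins, 19 reached 10 CPM in every club library and 12 reached 100 CPM. In Scgb1a1-free CPM, 19 of the 24 lay above every ciliated library, against 6.84% of all genes. Above every type 2 library lay 17, against 9.01%. The 24 include Scgb1a1 and Scgb3a2, which the rule used. Nothing is read from these counts, since the gates used the same contrast. On the CPM scale, Scgb3a1 stood at 7950.2 in WT A, 24443 in WT B, 7615 in mutant A and 10961 in mutant B. WT B was thus the highest library for Scgb3a1, and WT A lay between the 2 mutant libraries. Hp, the haemoglobin-binding haptoglobin, stood at 3343 in WT A, 3998 in WT B, 3439.6 in mutant A and 5048 in mutant B, and Wfdc2, a whey acidic protein-type protease inhibitor, at 2708 in WT A, 4254 in WT B, 3045 in mutant A and 3886 in mutant B. The genotypes overlapped for both.

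The antimicrobial and mucin genes were uneven between libraries. In CPM, Reg3g had 680.2 in WT A, 2510.3 in WT B, 349 in mutant A and 1719.9 in mutant B. Bpifa1, another BPI-fold airway protein, ranged further, with 879.5 in WT A, 8089.9 in WT B, 32.7 in mutant A and 2878 in mutant B, and its UMIs came from 9 cells, 1 of which, in WT B, held 3894 UMIs or 38.2% of the total. Tff2, a trefoil peptide, had 272 in WT A, 775 in WT B, 98.2 in mutant A and 386 in mutant B. For all 3 genes WT B was the highest library and mutant A the lowest. The 3 WT B cells with the highest doublet scores, the only club cells in the top 8% of their library, held 7162 of the 7164 Bpifa1, 2175 of the 2223 Reg3g and 623 of the 686 Tff2 UMIs of WT B. Bpifb1 (345 to 759 CPM), Muc5b (229 to 312 CPM) and Pigr (256 to 292 CPM) were steadier. Muc5ac, the mucin of surface goblet cells, gave 9 UMIs in 5 cells, Spdef, the goblet cell transcription factor, 9 UMIs in 8 cells, and the membrane mucin Muc16 none. A count of 0 of 75 cells allows a share of up to 4% of cells with a UMI, counting error alone.

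Scgb3a1 was high in some club cells and at 0 in most, so the 250 bases before its RefSeq start (chr11:49663345-49663594, plus strand, mm10) are shown with the single match to the NK2 homeodomain motif TNAAGTG in capitals, here on the minus strand and 174 bases before the start.
Scgb3a1: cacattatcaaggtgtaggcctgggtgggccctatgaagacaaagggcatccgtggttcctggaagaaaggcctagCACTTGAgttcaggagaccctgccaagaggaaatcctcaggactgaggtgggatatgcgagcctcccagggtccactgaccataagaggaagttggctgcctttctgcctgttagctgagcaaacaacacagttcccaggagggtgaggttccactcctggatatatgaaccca
The motif was searched on both strands and was present in 10.1% of 32851 RefSeq promoters of this length. Of the 25 leading club genes 17 had a promoter entry, and 6 of these 17 held it. The second motif searched, GGGAANNNCC for NF-kB, was present in 4.94% of promoters and in 2 of the 17. For both motifs a gene counted if any of its promoter entries held a match. The shares of all promoters count single entries, so the 2 kinds of count are unlike. The motifs do not overlap in the promoters printed, and a match of letters is a description only.

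Club cells also held messenger RNA for the surfactant collectins and surfactant protein B, in every library. Of 9 surfactant and lamellar body genes, 6 reached 10 CPM and 5 reached 100 CPM in every library. Sftpa1, a collectin that binds microbes, had CPM of 1326 in WT A, 1127 in WT B, 876 in mutant A and 1578 in mutant B. Sftpb, which spreads the surfactant film, was even at 1039 to 1198 CPM, and Sftpd, the second collectin, ran from 478 to 744 CPM. Cxcl15, a lung epithelial chemokine, had CPM of 582 and 247 in the WT libraries and 499.5 and 836 in the mutant ones. All 9 genes lay below every type 2 library, against 4.47% of all genes. The type 2 gate asked for Sftpc, which is among the 9, and both gates used type 2 genes. Nothing is read from this count. In Scgb1a1-free CPM, Sftpa1 came to 2985 in club, 19526 in type 2, 293 in ciliated and 11.6 in endothelial cells. Sftpc, which is restricted to type 2 cells, stood at 57.5 in club cells and 157645 in type 2 cells. The Sftpc level of club cells lay between those of ciliated (50.02) and endothelial droplets (91.2), whereas that of Sftpa1 was far above both. Endothelial droplets had a median of 0 Sftpc UMIs in every library and maxima of 458 to 2937, so few droplets weighed on their mean. Of 12 type 2 markers, 5 reached 10 CPM in every club library, and these were Sftpa1, Sftpb, Cxcl15, the chitinase-like Chil1 (89.0 to 411 CPM) and the lipid transporter Abca3 (46.3 to 73.9 CPM). Lyz1 had no UMI, Napsa had 8 in 6 cells, and the rule itself held down Etv5 (none), Lamp3 (in 1 cell) and Slc34a2 (in 22 cells).

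Genes that metabolize foreign chemicals formed the second large block of the club cell messenger RNA. Of 25 phase 1 genes, whose enzymes oxidize or hydrolyse, 16 reached 10 CPM and 11 reached 100 CPM in every library. Cbr2 had CPM of 4380.3 in WT A, 4904 in WT B, 5281 in mutant A and 4693 in mutant B, and the genotypes overlapped. Cyp2f2, the P450 enzyme known to activate naphthalene and one of the rule's genes, took 0.452% of UMIs in WT A, 0.393% in WT B, 0.520% in mutant A and 0.423% in mutant B. Aldh1a1, a retinal dehydrogenase, ran from 728 to 1203 CPM, Cyb5a, an electron donor for P450 enzymes, from 599 to 748 CPM, and the carboxylesterase Ces1d from 497 to 546 CPM. Por, the reductase that P450 enzymes depend on, stood at 294 to 461 CPM. In Scgb1a1-free CPM, 16 of the 25 lay above every ciliated library, against 6.84% of all genes, and 18 above every type 2 library, against 9.01%. Nothing is read from these counts either.

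Of 26 phase 2 and glutathione genes, whose products conjugate the oxidized chemicals or remove peroxides, 22 reached 10 CPM and 16 reached 100 CPM in every library. Prdx6, a peroxiredoxin, had CPM of 1661 in WT A, 1706 in WT B, 1521 in mutant A and 1949 in mutant B. Mgst1, a microsomal glutathione transferase, ran from 1357 to 1742 CPM, Selenbp1, a selenium-binding protein, from 1238 to 1713 CPM, and Prdx1 from 485 to 679.8 CPM. In Scgb1a1-free CPM, 13 of 26 lay above every ciliated library (6.84% of all genes) and 3 below (17.1%), and 17 lay above every type 2 library (9.01%). The gates used these contrasts too, and nothing is read from the counts. Prdx6, for one, came to 4163 Scgb1a1-free CPM in club cells and to 5649 in alveolar type 1 cells.

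**Figure D2:**
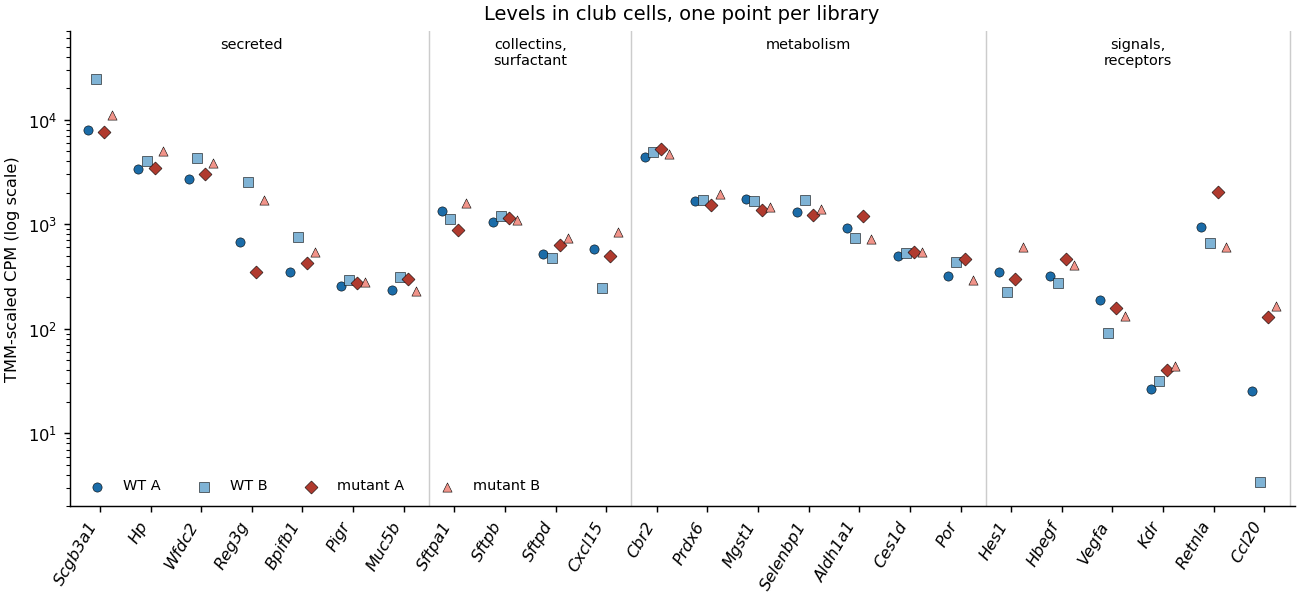
TMM-scaled CPM (y axis, log scale) of 24 genes in club cells, 1 point per library, grouped by role. Metabolic genes such as Cbr2 and Ces1d sit within narrow ranges in the 4 libraries, while Reg3g and Ccl20 spread widely.

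Of 22 airway transcription factor genes, 16 reached 10 CPM and 3 reached 100 CPM in every library. Cebpb and Cebpd, C/EBP factors of secretory and stress programmes, had 282 to 541 and 332 to 415 CPM, Klf5 had 159 to 221 CPM and the epithelial ETS factor Elf3 92.6 to 126 CPM. Sox2, the factor of conducting airways, came to 97.3 Scgb1a1-free CPM in club cells, 60.5 in ciliated cells and 0 in type 2 cells. Nkx2-1, the factor of lung epithelium, came to 84.1 in club, 208 in type 2 and 419 in type 1 cells. Basal cell genes were at the floor: Krt5, Krt14, Trp63, Ngfr and Krt6a had no UMI in any club cell, and Krt15 was the highest of the 8 at 5.31 to 16.9 CPM. Of 8 genes of neuroendocrine cells and variant club cells, Chga, Syp, Resp18 and Scg5 had none, and Upk3a, a uroplakin of variant club cells, had 15 UMIs in 5 cells. The proliferation genes Mki67 and Top2a had 9 UMIs in 4 cells and 10 UMIs in 5 cells.

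Junction and keratin genes were well represented, with 14 of 16 at 10 CPM and 10 of 16 at 100 CPM in every library. Krt8 stood at 574 to 788 CPM, Krt18 at 406 to 719.6 CPM and Krt19 at 324 to 517 CPM. All 3 keratins of simple epithelium had higher means in ciliated cells, and 7 of the 16 genes lay below every ciliated library, against 17.1% of all genes. Cldn3 had 262 to 365 CPM, and its level was 784 Scgb1a1-free CPM in club against 1344 in ciliated cells. Cldn10 went the other way, with 600.3 against 61.9.

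Among 20 genes of ion and water transport, 10 reached 10 CPM and 4 reached 100 CPM in every library. Atp1b1, a sodium pump subunit, stood at 509 to 589.9 CPM and Aqp5, a water channel, at 121 to 220.1 CPM. Slc12a2, which loads epithelial cells with chloride, stood at 115 to 196 CPM. Scnn1b, a subunit of the epithelial sodium channel, came to 249 Scgb1a1-free CPM in club, 20.9 in ciliated and 402 in type 1 cells. Foxi1, the factor of ionocytes, had no UMI.

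In the Notch pathway the transcriptional target Hes1 was the main transcript, with CPM of 352 in WT A, 224 in WT B, 302 in mutant A and 605 in mutant B. Of 12 pathway genes, 4 reached 10 CPM in every library, and these were Hes1, the receptors Notch1 (19.2 to 29.0 CPM) and Notch2 (29.2 to 42.0 CPM) and the feedback gene Nrarp (16.9 to 33.2 CPM). The ligand Jag1 stood at 23.3 Scgb1a1-free CPM in club cells and 96.9 in ciliated cells, and the ligand Jag2 at 1.58 and 91.2. The club cells held receptor and target messages. For both Jagged ligands every ciliated library lay above every club library, as for 17.1% of all genes. Of the 12 genes, 3 lay below every ciliated library and 1 above, the latter against 6.84% of all genes. Summed over the 12, Scgb1a1-free CPM were 1205 in club and 1249 in ciliated cells. Nothing is read from these counts. Among 9 genes of the EGF family, the ligand Hbegf led at 277 to 469 CPM, while Areg had 22.6 to 72.0 CPM, the ligand Nrg1 14.7 to 45.2 CPM and the receptor Erbb3 18.5 to 31.9 CPM.

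Kdr, the gene that carries the mutation, was present in club cells. It lies at chr5:75932827-75978458 on the minus strand (mm10, GENCODE M21). Its CPM were 26.6 and 31.6 in the WT libraries and 40.2 and 44.5 in the mutant ones. Both mutant libraries lay above both WT libraries, as for 15% of all genes tested. Kdr was not called in the comparison of genotypes given below (unadjusted p = 0.126 from edgeR). A Kdr UMI was found in 46 of 75 club cells, and in 57.1% to 69.2% of them by library. In alveolar type 1 cells, which serve as the background, 1.79% to 3.26% had one. Type 1 cells were shallower, however, with library medians of 3156 to 7517 UMIs against 40049 to 61145 in club cells. In Scgb1a1-free CPM, Kdr stood at 87.1 in club, 14.6 in ciliated, 6.78 in type 2, 4.56 in type 1 and 438 in endothelial cells. No ciliated cell of WT A or mutant A had a Kdr UMI. The ciliated level thus came from WT B and mutant B, where some ciliated droplets carried much Scgb1a1.

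Other endothelial genes were present beside it at different levels. Club cells held 127 UMIs of Kdr, 62 of the endothelial adhesion molecule Pecam1 and 11 of Flt1, the other VEGF-A receptor of endothelium. A Pecam1 UMI was found in 41.2% of club cells in WT A, 9.52% in WT B, 58.3% in mutant A and 46.2% in mutant B, and a Kdr UMI in 64.7%, 57.1%, 58.3% and 69.2% in the same order. Kdr stood to Flt1 as 11.5 to 1 in club cells, 6.00 to 1 in ciliated cells (18 to 3 UMIs) and 2.33 to 1 in type 2 cells (7 to 3 UMIs). It was 0.513 to 1 in endothelial cells (78639 to 153246 UMIs) and 0.491 to 1 in type 1 cells (28 to 57 UMIs). The 18 ciliated Kdr UMIs were all in WT B and mutant B. The rule capped Cdh5 with Cldn5 at 1 UMI, so cells with more endothelial RNA had been left out, and the part of endothelial RNA in the Kdr level was not tested. Vegfa, the ligand, had CPM of 190.0 in WT A, 90.3 in WT B, 156 in mutant A and 134 in mutant B, and its level was 351 Scgb1a1-free CPM in club, 22.2 in ciliated and 3809 in type 1 cells. Of the 11 genes of VEGF ligands, receptors and partners, Kdr and Vegfa were the 2 at 10 CPM or more in every library. Pgf, Flt4 and Sh2d2a, the adaptor known to bind VEGFR2 at the mutated tyrosine, had no UMI.

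**Figure D3:**
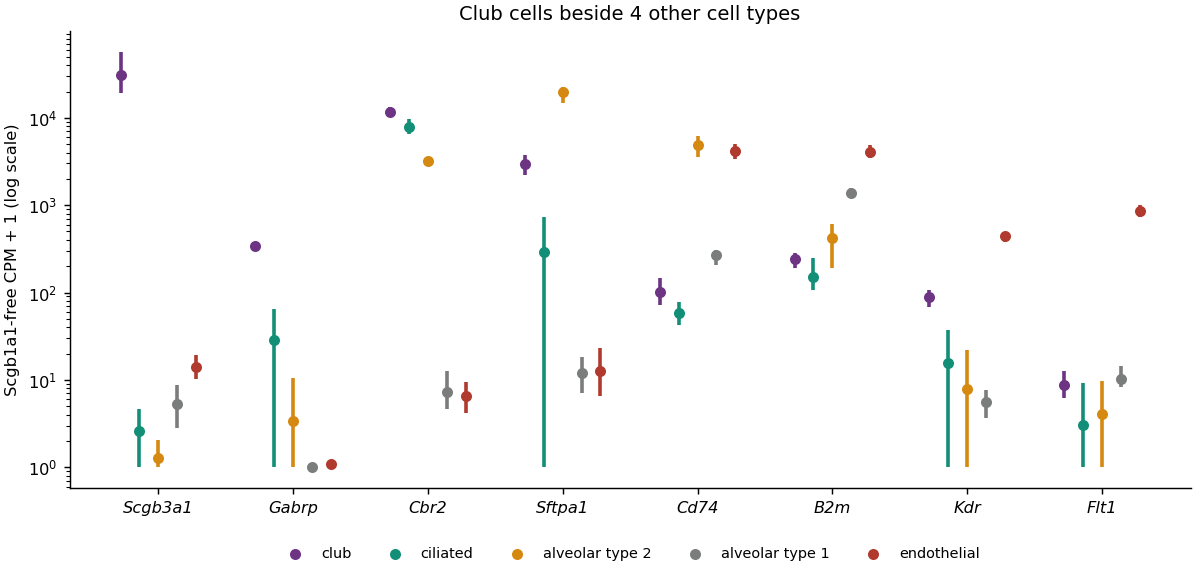
Scgb1a1-free CPM + 1 (y axis, log scale) of 8 genes in club, ciliated, alveolar type 2, alveolar type 1 and endothelial cells, with a point for the mean and a line for the range over the 4 libraries. Kdr in club cells lies between its low level in the other epithelial types and that of endothelial cells, whereas Flt1, Cd74 and B2m are high in endothelial cells and low in club cells.

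Antigen presentation and interferon genes were sparse in club cells, and in ciliated cells too. Summed over the MHC class II, MHC class I and interferon lists, Scgb1a1-free CPM were 147, 1510 and 431 in club cells. In ciliated cells they were 127, 1206 and 631, and the interferon list came to 210 in type 2 cells. Of 9 MHC class II genes, 1 reached 10 CPM in every library: Cd74, the class II chaperone, at 29.7 to 58.0 CPM. Cd74 came to 101 Scgb1a1-free CPM in club cells against 4824 in type 2 and 4189 in endothelial cells. Of 13 MHC class I genes, 7 reached 10 CPM and 13 lay below every endothelial library, against 38.8% of all genes. B2m, the class I light chain, came to 241 in club and 4026 in endothelial cells. H2-K1 (175 to 217 CPM) and H2-D1 (127 to 225 CPM), the class I heavy chains, were the highest of the list. Of 20 interferon response genes, Ifitm3 (87.0 to 123 CPM) and Bst2 (13.6 to 19.9 CPM) reached 10 CPM, and 18 lay below every endothelial library.

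The mice had been in hypoxia, and with no library from normal oxygen the levels of hypoxia genes in club cells stand alone. Of 23 hypoxia response genes with an identifier of their own, 12 reached 10 CPM in every library. Epas1, which encodes HIF-2 alpha, had 198 to 262 CPM, Ldha, lactate dehydrogenase A, 118 to 203 CPM and Pgk1, a glycolytic kinase, 70.5 to 96.0 CPM. All 16 immediate early genes and all 11 heat shock genes reached 10 CPM in every library. The highest of the immediate early genes was Jun at 1180.1 to 1858 CPM, and the highest heat shock gene was Hsp90ab1 at 892 to 1218 CPM. Collagenase and DNase digestion preceded capture, and its part in these levels was not tested. Of 17 endoplasmic reticulum chaperone and unfolded protein response genes 15 reached 10 CPM, led by Hspa5 at 417 to 684 CPM and Atf4 at 298 to 392 CPM.

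Club cells differed sharply among themselves in Scgb3a1. In 16 cells it reached at least 100 UMIs, from 183 to 8420, and in the other 59 it had 15 UMIs at most, with 51 cells at 0. Every library held both kinds: 2 of 17 cells in WT A, 6 of 21 in WT B, 5 of 24 in mutant A and 3 of 13 in mutant B were high. In endothelial droplets 5.17% to 8.14% had an Scgb3a1 UMI, at library medians of 4478.5 to 5732 UMIs. The line at 100 UMIs was drawn after the values were seen, and the same cells are compared on both sides of it, so what follows is a description with no test. The median depth was 61795.5 UMIs in the high cells and 48558 in the low cells.

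The Scgb3a1-high cells carried other secreted defence and mucus genes with it. Per 10000 UMIs other than Scgb1a1, averaged over the 4 libraries, Muc5b stood at 22.9 in high cells and 0.556 in low cells, Reg3g at 106 and 0.722, Bpifb1 at 45.6 and 0.0840, and Tff2 at 32.2 and 0.0792. At least 10 Muc5b UMIs were found in 14 of 16 high cells and 2 of 59 low cells, and at least 10 Reg3g UMIs in 14 and 1. Bpifa1 stood at 217 and 0.0197, and a UMI of it was found in 8 high cells and 1 low cell. Also higher were Ltf, the iron-binding lactoferrin (8.48 and 0.562), Pglyrp1, a peptidoglycan recognition protein (5.20 and 0.226), and Pigr (13.0 and 4.20). Scgb3a2 was at 558 in high and 177 in low cells. Of 1214 genes with at least 150 UMIs, 45 (3.71%) were higher in the high cells of every library than in the low cells of any library. The 45 include Scgb3a1, by which the line was drawn.

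The low cells held more of another set, and 262 of the 1214 genes (21.6%) were lower in the high cells of every library. Hes1 stood at 2.73 in high and 11.3 in low cells. Npc2, a lysosomal cholesterol carrier, was at 6.81 and 32.5, Sftpb at 10.4 and 33.6, Hp at 52.7 and 114, and Cbr2 at 75.1 and 135. The smallest ratios among the 262 included Igfbp6, a binding protein of insulin-like growth factors (0.0327 and 2.09), the transcription factor Sox4 (0.160 and 1.94) and Socs3, an inhibitor of cytokine signalling (0.599 and 4.62). The libraries of high and low cells overlapped for Cyp2f2 (91.6 and 121) and Mgst1 (41.1 and 36.6), so not every metabolic gene followed the split.

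Kdr also followed it. A Kdr UMI was found in 45 of 59 low cells and 1 of 16 high cells. After each cell was thinned to 10000 UMIs, which left out 4 low cells that were shallower, 20 of 55 low cells (36.4%) and 0 of 16 high cells had one. A count of 0 of 16 cells is a small base, and Scgb3a1 filled part of each high cell's 10000 UMIs.

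**Figure D4:**
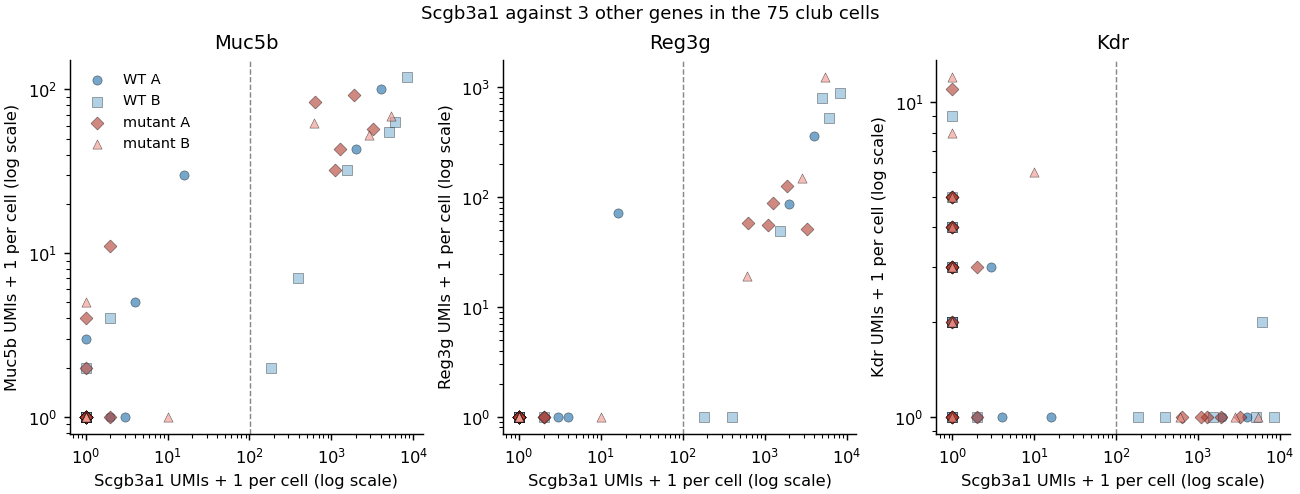
Scgb3a1 UMIs + 1 (x axis, log scale) against UMIs + 1 of Muc5b, Reg3g and Kdr (y axes, log scale) in each of the 75 club cells, colored by library, with a dashed line at the 100 UMI split. Cells right of the line (16) hold most of the Muc5b and Reg3g, and 45 of the 46 cells with Kdr lie left of it.

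The first comparison of genotypes asked whether the mutation changed how many club cells were recovered. Club cells made up 0.145% of cells in WT A (95% Wilson interval 0.0906% to 0.232%), 0.199% in WT B (0.130% to 0.304%), 0.193% in mutant A (0.130% to 0.287%) and 0.129% in mutant B (0.0751% to 0.220%). The intervals cover counting error only. The means were 0.172% ± 0.0381 (SD, n = 2) in WT and 0.161% ± 0.0455 (SD, n = 2) in mutant libraries. An exact permutation test (two-sided) of these shares gave p = 0.667, where 2 against 2 libraries can give no p below 0.333. The difference of -0.0112 percentage points was smaller than the spread within either genotype, and its sign turned without WT B (0.0157) or without mutant B (0.0210).

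The second comparison asked which genes differed between mutant and WT club cells. Of 4492 genes tested with edgeR's quasi-likelihood test on UMIs summed per library, 1 passed a Benjamini-Hochberg adjusted p of 0.05, or 0.0223%, and 159 (3.54%) had an unadjusted p under 0.05. It was Ccl20, the chemokine that draws CCR6-bearing lymphocytes and dendritic cells to epithelium, at chr1:83116766-83119167 on the plus strand (mm10, GENCODE M21). Ccl20 had 25.2 and 3.39 CPM in WT A and WT B and 129 and 164 CPM in mutant A and mutant B. Both mutant libraries thus lay above both WT libraries, with a log2 fold change of 3.40 (SE 0.50) and an adjusted p of 0.0145. The other types held next to none of it, with 0 Scgb1a1-free CPM in ciliated, type 2 and type 1 cells and 0.0276 in endothelial cells.

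The Ccl20 difference came from few cells. Its UMIs numbered 19 in 3 cells of WT A, 3 in 2 cells of WT B, 138 in 4 cells of mutant A and 133 in 4 cells of mutant B. In mutant A 110 of the UMIs were in 1 cell, and in mutant B 111 were in 1 cell. Without the cell with most Ccl20 UMIs in each library the log2 fold change was 2.82 with an adjusted p of 0.587 from edgeR. The call was lost without mutant B (adjusted p = 0.381 from edgeR), after which no gene was called, with DESeq2 (adjusted p = 1.00) and with the set letter as a replicate block (adjusted p = 0.0958 from edgeR, with no gene called). Over 18 alternatives the log2 fold change stayed between 2.54 and 5.36, and the call was kept in 10. Among these, the Scgb1a1 limits of 10 and 50 UMIs picked the same cells as the main rule, so the call could not change there. The number of genes called was 22 without WT A, 28 without WT B and 11 without mutant A.

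Because Ccl20 was the gene called, the 250 bases before its RefSeq start (chr1:83116516-83116765, plus strand, mm10) are shown with the match to the NF-kB motif GGGAANNNCC in capitals, 81 bases before the start.
Ccl20: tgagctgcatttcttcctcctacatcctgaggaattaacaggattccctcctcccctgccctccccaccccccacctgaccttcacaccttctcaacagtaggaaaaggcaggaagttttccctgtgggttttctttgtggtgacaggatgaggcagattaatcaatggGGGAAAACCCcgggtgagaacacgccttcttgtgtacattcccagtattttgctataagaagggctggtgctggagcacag
The match is a description of this window, and binding was not measured.

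None of the other named genes passed the test, and most of the larger folds also came from single cells. Tnfaip2, a gene induced by tumour necrosis factor, had 14.6 and 1.13 CPM in WT and 41.2 and 66.8 CPM in mutant libraries, a log2 difference of 2.82 (SE 0.56) with an adjusted p of 0.111 from edgeR. In mutant A 41 of its 44 UMIs and in mutant B 53 of its 54 were in 1 cell, the same cells that held the 110 and 111 Ccl20 UMIs. Cxcl5, a neutrophil chemokine, had 14.6 and 11.3 and 26.2 and 692 CPM (log2 4.78 (SE 0.95), adjusted p 0.111 from edgeR), and 488 of its 609 UMIs over all libraries were in that cell of mutant B. Hopx, a homeodomain gene of type 1 cells, had 569 and 87.0 and 64.5 and 77.9 CPM (log2 -2.20 (SE 0.55), adjusted p 0.503 from edgeR). The WT A cell that carried type 1 markers held 380 of the 428 Hopx UMIs of that library, and the log2 difference was -0.16 without it. The adjusted p of Ccl20 was then 0.00949 from edgeR. With only cells of at least 25% Scgb1a1, which also left out 2 cells of mutant A, no gene was called, and the adjusted p of Ccl20 was 0.0656 from edgeR.

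**Figure D5:**
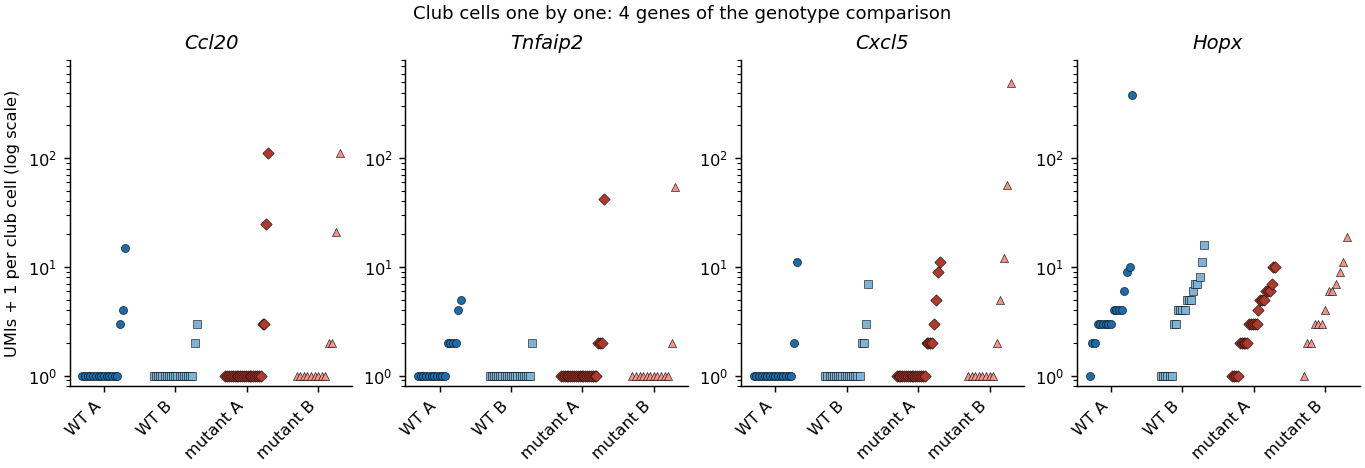
UMIs + 1 per club cell (y axis, log scale) of Ccl20, Tnfaip2, Cxcl5 and Hopx, with 1 point per cell, the cells of a library side by side in rising order. Single cells stand far above the rest of their library: 110 and 111 Ccl20 UMIs in mutant A and mutant B, 488 Cxcl5 UMIs in mutant B and 380 Hopx UMIs in WT A.

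The remaining named genes had no adjusted p under 0.05 either. Lsmem1, which encodes a membrane protein, had 49.2 and 47.4 CPM in WT and 125 and 110.0 CPM in mutant libraries, a log2 difference of 1.29 (SE 0.31). Slc4a4, a sodium bicarbonate cotransporter, had 43.8 and 39.5 and 78.6 and 98.9 CPM (log2 1.09 (SE 0.32)). Lower in both mutant libraries were Glo1, glyoxalase 1, with 37.2 and 33.9 and 14.97 and 13.6 CPM (log2 -1.30 (SE 0.37)), and Il13ra1, a subunit of the interleukin 13 receptor, with 34.5 and 37.3 and 19.6 and 12.4 CPM (log2 -1.13 (SE 0.37)). Slc15a2, a peptide transporter, and Gem, a small GTPase, differed by -1.59 (SE 0.45) and -1.29 (SE 0.39). The 3 WT B cells with the highest doublet scores held 64 of the 68 Slc15a2 UMIs and 80 of the 125 Gem UMIs of WT B, and without these cells the log2 differences were 0.095 and -0.61. Without WT B they were -0.55 and -0.52. Gm8797, a predicted gene, differed by 2.58 (SE 0.63) and by 0.67 without mutant B. Adjusted p was 0.489 for Lsmem1 and for Gm8797 and 1.00 for the others of these (edgeR). Both mutant libraries lay above both WT libraries for 15% of all genes tested and below for 14.3%, which is the measure for any single gene of this kind.

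Kdr itself differed by 0.53 (SE 0.33) on the log2 scale with an adjusted p of 1.00 from edgeR. Scgb3a1 differed by -0.80 (SE 0.39) and Bpifa1 by -1.63 (SE 1.05), and without WT B the values were 0.24 and 0.74. Without only the 3 WT B cells with the highest doublet scores, which held 19525 of the 21645 Scgb3a1 UMIs of that library, they were 0.74 and 1.71. Cbr2 differed by 0.10 (SE 0.26).

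Read by role, the club cell genes gave 1 call, Ccl20, and the median log2 difference over all genes tested was 0.01. Of 24 secreted protein genes 18 passed the filter on low counts, and of these 7 were above 0 and 11 below, 0 were called, and the median was -0.12. The 18 of 25 phase 1 genes that passed it (11 above, 7 below, median 0.01) and the 23 of 26 phase 2 genes (15 above, 8 below, median 0.09) had 0 called as well. For phase 2 genes both mutant libraries lay above both WT libraries in 6 and below in 4 of 23, against 15% and 14.3% of all genes. The 7 of 9 surfactant genes tested had 3 above and 4 below.

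No transcription factor gene was called. Of 22 genes 18 were tested and 13 were above 0, against 50.8% of all genes tested, with a median of 0.21, and in 6 both mutant libraries lay above both WT libraries, against 15% of all genes. Of the 16 immediate early genes 13 were above 0 (median 0.16). In 4 of them both mutant libraries lay above both WT libraries, against 15% of all genes. Egr1 had 651 and 504 CPM in WT and 919.5 and 1107 CPM in mutant libraries (log2 0.81 (SE 0.27)). The 5 of 12 Notch genes tested were all above 0, with a median of 0.37. In 3 of them both mutant libraries lay above both WT libraries, against 15% of all genes. Hes1, however, overlapped, since mutant A at 302 CPM lay below WT A at 352 CPM. None of these genes had an adjusted p under 0.05 in edgeR. Of 17 chaperone and unfolded protein response genes 13 were above 0 (median 0.19). Without overlap, 1 was above and 1 below, against 15% and 14.3% of all genes.

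Of the hypoxia response genes 15 were tested, with 6 above 0 and a median of -0.07, with 0 called. Of 19 cytokine and chemokine genes 12 were tested, and 6 were above and 6 below, and Ccl20 was the 1 called. The 4 alveolar type 1 markers that passed the filter on low counts (Hopx, Ager, Emp2 and Pdpn) were all below 0, with a median of -1.14. The WT A cell described above held 304 of the 331 Ager, 118 of the 136 Emp2 and 16 of the 21 Pdpn UMIs of that library. Without it, in an alternative added after seeing the data, 2 of the 4 were above 0 and 2 below, with a median of 0.32 and 0 called. Ager turned from -1.11 to 1.36 and Emp2 from -1.18 to 0.80, while Pdpn went from -0.91 to -0.26. All other lists of cell type markers had at most 7 genes that passed this filter and 0 called.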

How the data were processed

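The deposited matrices hold whole-number UMI counts per gene and barcode, not normalized, as the authors made them with Cell Ranger 6.1.1 per the file headers. The submitters' processing notes name mm10 as the build, and Seurat 4.1.0, UMI-tools and fastp as tools. The gene annotation was not given in the sources used here. All 53287 deposited barcodes were filtered and gated by the criteria given in the opening, with no clustering. Scrublet (scanpy 1.11.5) gave each cell a doublet score. Its automatic threshold marked 387 cells of mutant A, 64 of WT B and 0 of the others, none of them a club cell. No doublet was removed in the main result, and the highest 8% of scores per library (3 club cells, all of WT B) were left out as an alternative.

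UMIs of club cells were summed per library and tested with edgeR 4.0.16 in R 4.3.3 (quasi-likelihood test, TMM factors, filterByExpr, genotype as the only term, Benjamini-Hochberg adjustment over all genes tested). Standard errors of the log2 fold change were derived from the test, as its absolute value over the square root of the quasi-likelihood F. DESeq2 1.42.0 was an alternative. The scripts were tested on simulated data. CPM are TMM-scaled. Comparison types were gated on at least 3 of the 4 ciliated genes, at least 20 Sftpc, at least 5 Ager, or at least 4 Cdh5 with Cldn5 UMIs. Club cell shares were compared by an exact permutation test. The other alternatives were RLE factors, no filter on low counts, other Scgb1a1 and mitochondrial limits, the set letter as a block and each library left out.

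The members and lists were chosen with earlier results of these data known. The text names the called genes, the 5 genes per direction with the smallest p at a mean of at least 20 CPM whose genotypes do not overlap, up to 4 leading genes per list, and the 25 genes with the largest fold over other cells among those at 100 unscaled CPM or more. Values outside this rule, such as those of the Scgb3a1 split, were chosen after they were seen. Aldoa, Ddit3 and Mx1 share a symbol with another identifier and were left out. Promoters are from the RefSeq table of mm10.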

Additional observations from a re-analysis of the deposited data

How the results depend on the processing

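The genotype comparison called 1 gene, Ccl20, and this count moved with most choices. It was 31 (12 higher, 19 lower) with no filter on low counts, 3 without the highest doublet scores (Ccl20, Cxcl5 and Cyp2a5), and 0 to 28 with 1 library left out. It was 0 with DESeq2 (44 genes at an unadjusted p under 0.05) and 0 under 10% mitochondrial UMIs. In choices made after seeing the data, it was 0 with at least 25% Scgb1a1, 0 with under 100 Scgb3a1 UMIs and 2 (S100a8 and S100a9) with a wider gate. That gate asked for at least 1000 Scgb1a1 UMIs and kept only the limits on ciliated and type 2 genes. It thus dropped the rule's cap on S100a8 with S100a9 and its limits on Cdh5 with Cldn5, Ptprc and Col1a2. With 1 library left out, the lone library of a genotype is assumed to vary like the other pair. RLE factors, leaving out the rule's 3 genes and, added after seeing the data, leaving out the cell with fewest Scgb1a1 UMIs kept the count at 1. The Scgb1a1 limits of 10 and 50 UMIs picked the same cells as the main rule, so their count of 1 was fixed in advance. The adjusted p of Ccl20 was 0.0145 in the main result, 0.0655 under 10% mitochondrial UMIs, 0.512 with under 100 Scgb3a1 UMIs and 1.00 with the wider gate. The cause of these changes was not tested.

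The difference in club cell share, -0.0112 percentage points, ran from -0.0434 to 0.0210 with 1 library left out, and was 0.00377 without the highest doublet scores, 0.0356 with the wider gate and 1.24 as a share of epithelial cells. Signs also turned for Slc15a2 (0.095 without the highest doublet scores), Scgb3a1 (0.74 without these doublets, -1.41 to 0.24 with 1 library left out), Bpifa1 (1.71 and -7.11 to 0.74) and Cbr2 (-0.049 with the wider gate). Over 17 genes and 295 comparisons with an alternative, 261 kept their direction and side of the threshold, and 13 genes never turned. Most of these genes were named because their genotypes did not overlap in these same data, so their direction was likely to hold. The other Scgb1a1 limits also picked the same cells as the main rule. The tally is therefore a description only. The set letters give 2 pairs, whose deviations correlated at 0.131 over 4492 genes, and nothing shows that the letter pairs the pools. With the set letter as a replicate block 0 genes were called, and the adjusted p of Ccl20 was 0.0958.

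A test of whether genotype differences differed between club and ciliated cells was not run, since it was planned for at least 20 cells of each type in every library. With 13 to 24 club cells per library, a gene carried by 1 cell can set a library's value.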

Other observations

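Club cells held several iron, clotting and lipid mediator genes outside the lists. Trf, the iron carrier transferrin, came to 1632 Scgb1a1-free CPM in club, 91.9 in ciliated and 84.4 in type 2 cells. Cp, the copper oxidase ceruloplasmin, came to 827, 180.3 and 13.9, and Hmox1, haem oxygenase, to 759, 178 and 213 in the same order. F3, tissue factor, had 409 to 569 CPM over the 4 libraries and Ptgs2, an inducible prostaglandin synthase, 329 to 457 CPM. Retnla, a resistin-like secreted protein, had 938 and 667 CPM in the WT libraries and 2034 and 605 CPM in the mutant ones. A Retnla UMI was found in 57 of 75 club cells, with a median of 5 to 15.5 UMIs per cell by library and up to 475 in 1 cell. Nupr1, a stress-induced nuclear protein, had 935 and 1387 CPM in WT and 958 and 3169 CPM in mutant libraries, and 593 of its 2563 UMIs in mutant B were in 1 cell.

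The labels do not give the sex of the pooled mice. Xist was found in 10 to 12 club cells of each library and a Y-linked gene in 5 to 11, so every library held club cells with RNA of either kind.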
